A study of Mus musculus with 6 samples.

Results

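Ahnak, the annexins Anxa1 and Anxa2, 4 S100 genes (S100a4, S100a6, S100a10 and S100a11), the galectins Lgals1 and Lgals3, and Vim were followed in induced regulatory T cells (iTreg cells) with and without a conditional deletion of miR-31. The 10 genes were taken by symbol from the 27376 gene names on the array, and they carry 17 probes. Ahnak was selected on its measured rise from control to cKO, so its values are a description without a test. The other 9 genes encode annexins, S100 proteins, galectins and vimentin.

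Naive T cells came from the spleens of 3 miR-31 fl/fl CD4Cre mice (cKO) and 3 control mice, which the study's methods give as miR-31 fl/fl, all on the C57BL/6 background and 6 weeks old. Naive CD4+ cells sorted as negative for CD25 and Foxp3gfp were cultured for 4 days with TGF-β1 (5 ng/ml), IL-2 (40 ng/ml) and antibodies to CD3 (5 μg/ml) and CD28 (2 μg/ml). RNA from every animal was hybridized to a separate single-colour Agilent array. Both groups received the same treatment, and the groups differ by the Cre transgene, which is driven by Cd4 regulatory elements and is active from the thymus onward. The question of the comparison was which transcripts depend on miR-31 in iTreg cells. The labels name no sort for Foxp3 after the culture, so that a difference can stand for less RNA per cell or for fewer cells of a type, and these cannot be told apart.

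AHNAK is a very large scaffold protein that lies under the plasma membrane and, in T cells, is needed for calcium entry after antigen receptor triggering. It binds a complex of annexin A2, a calcium-dependent phospholipid-binding protein, and S100A10, a small S100 protein that unlike its relatives does not need calcium to bind its partner. S100A11 pairs with annexin A1, S100A4 and S100A6 are calcium sensors that bind myosin and other targets, and galectins are lectins that bind β-galactosides on surface glycoproteins. Vimentin is the main intermediate filament protein of lymphocytes. As a group these genes are known to be higher in effector and memory T cells than in naive T cells.

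The sequences shown first are the deleted microRNA and the places on Ahnak where the array reads it. The guide strand of the microRNA, mmu-miR-31-5p, lies at chr4:88910614-88910635 on the minus strand (RefSeq, GRCm38.p6), and its seed, bases 2 to 8, is in capitals. No probe of the array is named for this microRNA, so that its deletion could not be checked here. The probes A_51_P278675 and A_51_P365344 read transcript NM_009643 at positions 5364 and 10409, in the giant exon that is known to encode most of the AHNAK protein, although no annotation of the coding region was used here (mm9, chr19:9080951-9081010 and chr19:9085996-9086055, plus strand).
mmu-miR-31-5p: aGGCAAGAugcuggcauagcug
Ahnak probe A_51_P278675: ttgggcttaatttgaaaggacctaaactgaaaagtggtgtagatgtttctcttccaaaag
Ahnak probe A_51_P365344: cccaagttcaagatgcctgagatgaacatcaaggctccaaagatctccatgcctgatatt

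None of the 17 probes, each 60 bases long, holds a match to the miR-31 seed. Only the probe sequences were searched, so whether the transcripts hold a match elsewhere was not tested. All 4 probes for NM_009643 have the same offset between transcript and chromosome position, so that no intron lies in the 12658 bases they span. The other 2 Ahnak probes read the shorter transcript NM_001039959, at chr19:9063858-9063917 (position 84 of the transcript) and at chr19:9151186-9151245 (position 822), 57.6 kb beyond the last probe for NM_009643.

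All 17 probes were well above background on all 6 arrays, and no spot was saturated. Levels are log2 signals relative to the 75th percentile of the same array, and they can be compared between arrays for a probe but not between probes. Between arrays, the levels of the 22281 tested probes correlated at r of 0.974 to 0.985 within the cKO group, 0.984 to 0.989 within the control group and 0.948 to 0.984 across the groups. All 3 cKO arrays and control 1 were on 1 slide, and control 2 and control 3 were on another, so the difference between the cKO mean and control 1 is given as the value within the slide. A fit with the slide as a term gives the same value, since the second slide holds only controls. For 3 arrays against 3, the smallest 2-sided p of an exact permutation test is 0.10.

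Ahnak was higher on every cKO array than on every control array at each of its 6 probes. At the brightest probe, A_52_P263095 in NM_009643, its level was 3.69, 4.30 and 4.59 on the cKO arrays and 3.15, 3.12 and 2.64 on the control arrays, a log2 difference of 1.22 ± 0.27 (SE) or 2.33-fold. The groups did not overlap, and control 1 and control 2 lay close together while control 3 was lower. At A_51_P365344, at position 10409, levels were 3.37, 4.01 and 4.35 against 2.77, 2.80 and 2.20, a log2 difference of 1.32 ± 0.29. At A_51_P278675, the dimmest probe and the one nearest the start of the same transcript, they were -1.70, -1.40 and -0.68 against -2.22, -2.26 and -2.75, a log2 difference of 1.15 ± 0.29. At each of these probes cKO 3 was the highest and control 3 the lowest of the 6 arrays.

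**Figure D1:**
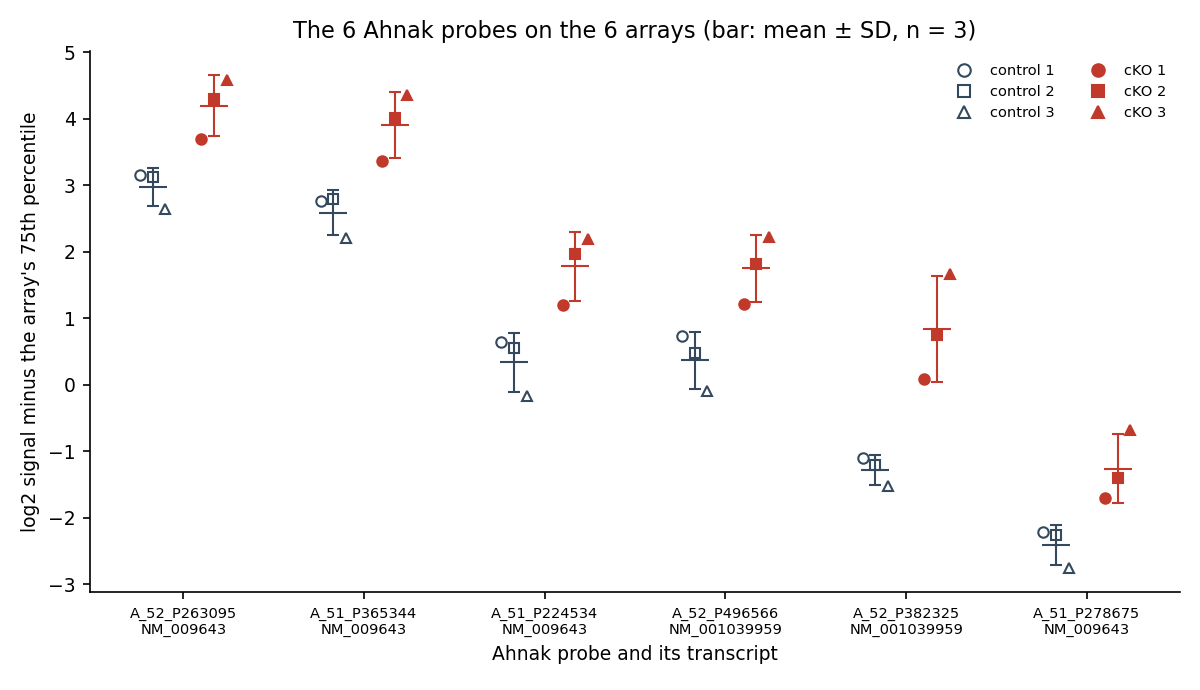
Level of Ahnak at each of its 6 probes (x axis, probe and transcript) as log2 signal minus the 75th percentile of the array (y axis). Open symbols are control arrays, filled symbols cKO arrays, symbol shapes give the replicate and bars the mean ± SD of 3 arrays. At each probe all 3 cKO arrays lie above all 3 control arrays, with cKO 1 the lowest cKO array and control 3 the lowest control array.

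The remaining Ahnak probes gave the same direction. A_51_P224534, near the end of NM_009643 at position 17393, read 1.20, 1.96 and 2.19 in cKO and 0.64, 0.55 and -0.17 in control, a log2 difference of 1.45 ± 0.33. The probe at the start of NM_001039959, A_52_P496566, read 1.21, 1.82 and 2.22 against 0.73, 0.47 and -0.10, a log2 difference of 1.38 ± 0.32. The farthest probe of that transcript, A_52_P382325, read 0.09, 0.75 and 1.67 against -1.10, -1.20 and -1.53. With a log2 difference of 2.12 ± 0.39, or 4.33-fold, this was the largest of the 6 values, whose range was 1.15 to 2.12. Within the slide, the log2 differences of the 6 probes were 0.96 to 1.94, and with any array left out they stayed between 0.85 and 2.49.

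These Ahnak values chose the gene, and no p-value is given for them. As a reference for the other genes, 16.9% of the 14357 tested genes, each by its brightest probe, had every cKO array above every control array, and 21.0% had every cKO array below. An adjusted p under 0.05 was reached by 0.130% of the tested probes, 29 in number, in either direction (limma, Benjamini-Hochberg adjustment over all tested probes). The unadjusted p was under 0.05 for 12.2% of the tested genes higher in cKO and 11.3% lower, and over probes for 11.7% higher and 11.3% lower. The median log2 difference of all tested genes was -0.04.

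Of the 9 genes other than Ahnak, 5 had all 3 cKO arrays above all 3 control arrays, and the same 5 had an unadjusted p under 0.05: Anxa1, Anxa2, S100a10, S100a11 and Lgals3. None of the 9 had an adjusted p under 0.05. The 9 genes were chosen with earlier results of these data known, so these counts are a description and not independent of that choice. Lgals1, S100a4, S100a6 and Vim overlapped between the groups. The median log2 difference of the 9 genes was 0.34. With normexp background correction and 75th-percentile scaling, 2 of the 9 genes, Lgals3 and S100a11, kept an unadjusted p under 0.05. Over all tested probes, those under 0.05 in either direction went from 5118 to 1654 in that setting.

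**Figure D2:**
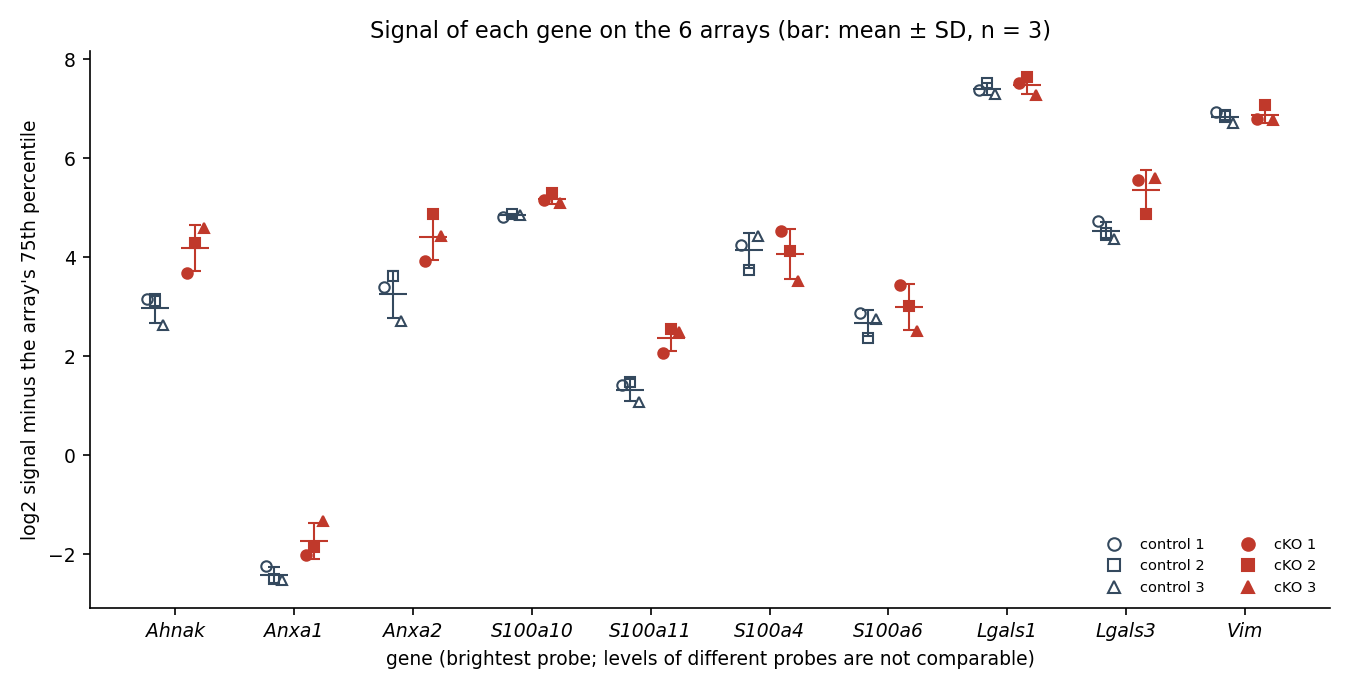
Level of each of the 10 genes at its brightest probe (y axis, log2 signal minus the 75th percentile of the array), with control arrays open, cKO arrays filled and bars for the mean ± SD of 3 arrays. The cKO arrays lie above the control arrays for Ahnak, Anxa1, Anxa2, S100a10, S100a11 and Lgals3, and the groups overlap for S100a4, S100a6, Lgals1 and Vim.

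The annexin partner of AHNAK, Anxa2, was read by 2 probes. At A_52_P62037 (mm9, chr9:69337510-69337569) its level was 3.93, 4.88 and 4.44 in cKO and 3.41, 3.63 and 2.72 in control, and at A_51_P165342 2.38, 3.30 and 2.90 against 1.86, 2.26 and 1.25. The groups did not overlap at either probe, and control 3 was again the lowest array, while cKO 2 rather than cKO 3 was the highest. The log2 difference at the brightest probe was 1.16 ± 0.32, or 2.24-fold (95% interval 0.37 to 1.95, adjusted p = 0.15 by limma), and 1.07 ± 0.33 at the other (adjusted p = 0.17). Within the slide the log2 difference was 1.00 at both.

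S100a10, whose product is the obligate light chain of the annexin A2 complex, was read by a single probe. Its level was 5.15, 5.31 and 5.09 in cKO and 4.81, 4.88 and 4.85 in control (mm9, chr3:93368437-93368496). The control arrays lay within a narrow band and all cKO arrays were above it. The log2 difference was 0.34 ± 0.10, or 1.27-fold (95% interval 0.09 to 0.59, adjusted p = 0.16 by limma), and 0.38 within the slide. With normexp background correction and 75th-percentile scaling it was 0.06, beside a median of 0.10 over all probes in that setting, and leaving out control 1 raised its unadjusted p to 0.061 at a log2 difference of 0.32.

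S100a11 had the smallest p of the 9 genes. This S100 protein forms a complex with annexin A1 and takes part in membrane repair. Its level was 2.07, 2.56 and 2.49 in cKO and 1.42, 1.49 and 1.07 in control (mm9, chr3:93330017-93330076). Every cKO array was above every control array, and the log2 difference was 1.05 ± 0.18, or 2.07-fold (95% interval 0.60 to 1.49, adjusted p = 0.088 by limma). The log2 difference was 0.95 within the slide and 0.92 to 1.20 with any array left out.

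Anxa1, a glucocorticoid-induced annexin that limits inflammation, was the dimmest of the 10 genes on its probe, with a processed signal of 181 to 373. Its level was -2.02, -1.85 and -1.33 in cKO and -2.24, -2.50 and -2.51 in control, at a probe that crosses a splice junction (mm9, chr19:20448248-20449761, minus strand). The groups did not overlap, but cKO 1 lay only a little above control 1. The log2 difference was 0.69 ± 0.20, or 1.61-fold (95% interval 0.20 to 1.17, adjusted p = 0.16 by limma), and 0.51 within the slide.

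Lgals3, which encodes a galectin that can form lattices with surface glycoproteins including the T cell receptor, had levels of 5.57, 4.88 and 5.61 in cKO and 4.74, 4.49 and 4.38 in control (mm9, chr14:48004398-48005214, a splice junction). The groups did not overlap, and cKO 2 was the cKO array nearest the controls. The log2 difference was 0.82 ± 0.23, or 1.76-fold (95% interval 0.27 to 1.37, adjusted p = 0.14 by limma), and 0.62 within the slide. Lgals1, whose product induces death of activated T cells and is abundant in regulatory T cells, had levels of 7.52, 7.64 and 7.28 in cKO and 7.39, 7.53 and 7.30 in control (mm9, chr15:78760566-78760625). These groups overlapped throughout, with a log2 difference of 0.07 ± 0.13 and a 95% interval of -0.25 to 0.40 (adjusted p = 0.76, limma).

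The 4 S100 genes lie in 2 places on chromosome 3 of mm9. The probes of S100a4 and S100a6 are 8.3 kb apart, those of S100a11 and S100a10 are 38.4 kb apart, and the pairs are separated by 2911.9 kb. S100a4, a marker gene of memory T cells that binds non-muscle myosin, had levels of 4.54, 4.12 and 3.53 in cKO and 4.24, 3.75 and 4.43 in control (chr3:90409842-90409902). The lowest array was cKO 3, where Ahnak was highest, and the log2 difference was -0.08 ± 0.30 with a 95% interval of -0.81 to 0.65 (adjusted p = 0.89, limma). S100a6, or calcyclin, had levels of 3.45, 3.01 and 2.52 in cKO and 2.88, 2.37 and 2.75 in control (chr3:90418160-90418219), with cKO 1 highest and control 2 lowest. Its log2 difference was 0.32 ± 0.26 with a 95% interval of -0.32 to 0.97 (adjusted p = 0.47, limma). It moved to 0.09 without cKO 1, 0.18 without control 2 and 0.56 without cKO 3, and to 0.55 with array weights. In that last setting 6 of the 9 genes rather than 5 had an unadjusted p under 0.05 and were higher. Over all tested probes, those under 0.05 in either direction went from 5118 to 7404 there. The intervals of both genes are wide enough to include a difference as large as that of S100a10.

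Vim had levels of 6.79, 7.07 and 6.78 in cKO and 6.93, 6.88 and 6.72 in control at the brighter of its probes (NM_011701, mm9, chr2:13504232-13504291). The groups overlapped, and the log2 difference was 0.04 ± 0.13 with a 95% interval of -0.27 to 0.35 (adjusted p = 0.85, limma). The other Vim probe, designed on the cDNA clone AK033175 (chr2:13498766-13498825), was much dimmer and read -2.50, -2.26 and -2.75 against -2.01, -2.10 and -1.84. There all cKO arrays lay below all control arrays, with a log2 difference of -0.52 ± 0.16 (adjusted p = 0.16 by limma), so that the probes of Vim disagree. With normexp background correction and 75th-percentile scaling the dim probe turned to 0.20. Of the 11 probes outside Ahnak, 6 had an unadjusted p under 0.05 and were higher, this 1 was lower, and 0 had an adjusted p under 0.05.

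**Figure D3:**
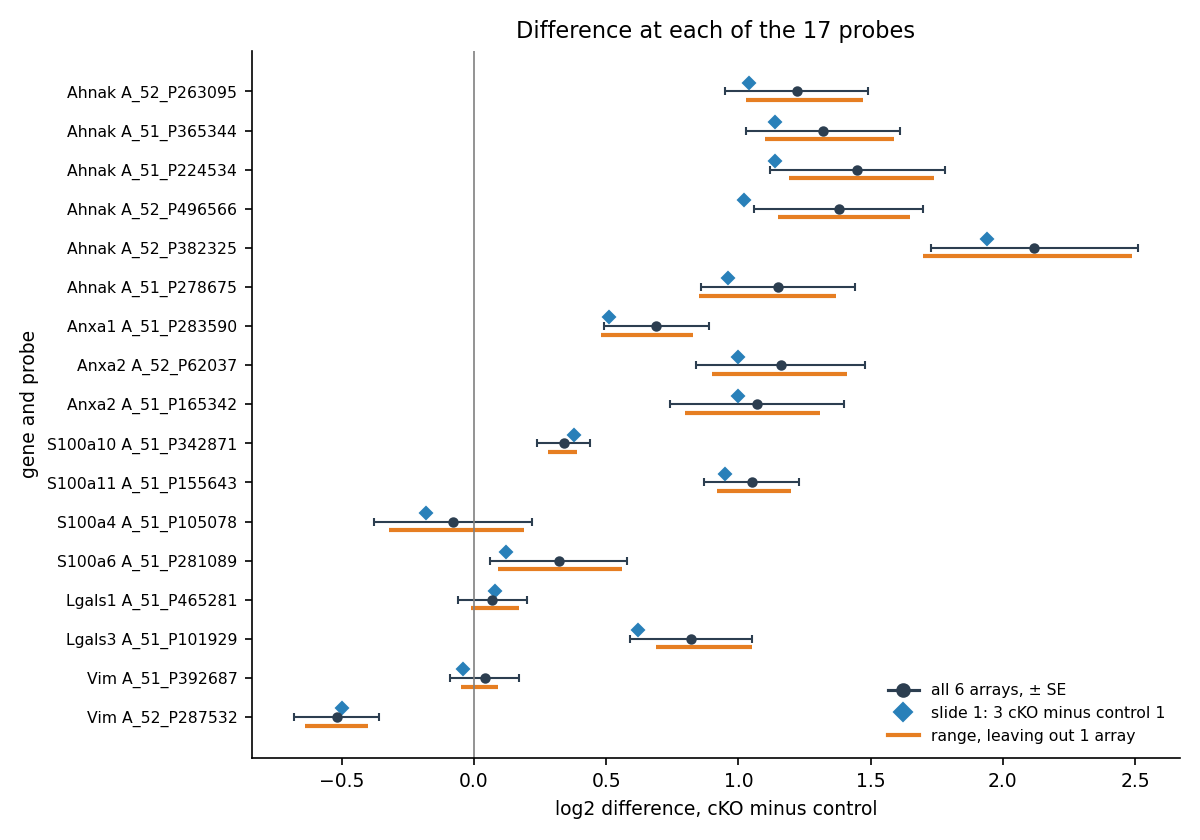
Log2 difference, cKO minus control (x axis), at each of the 17 probes (y axis). Black points are the fit over 6 arrays ± SE, blue diamonds the difference within the slide that holds all cKO arrays and control 1, and orange bars the range with 1 array left out. The Ahnak, Anxa1, Anxa2, S100a10, S100a11 and Lgals3 probes lie above 0 by each measure, and the dim Vim probe lies below 0 by each.

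With the slide as a term the sizes were those within the slide, but their errors were larger, since control 1 is the only control on that slide. S100a11 then was the only 1 of the 9 genes with an unadjusted p under 0.05, and its adjusted p was 0.56. Over all tested probes, those with an unadjusted p under 0.05 in either direction went from 5118 to 1639. The adjusted p values of Anxa1, Anxa2 and Lgals3 were 0.73 each in that fit, and that of S100a10 was 0.72. Slide and genotype are therefore only partly separable for these genes.

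**Figure D4:**
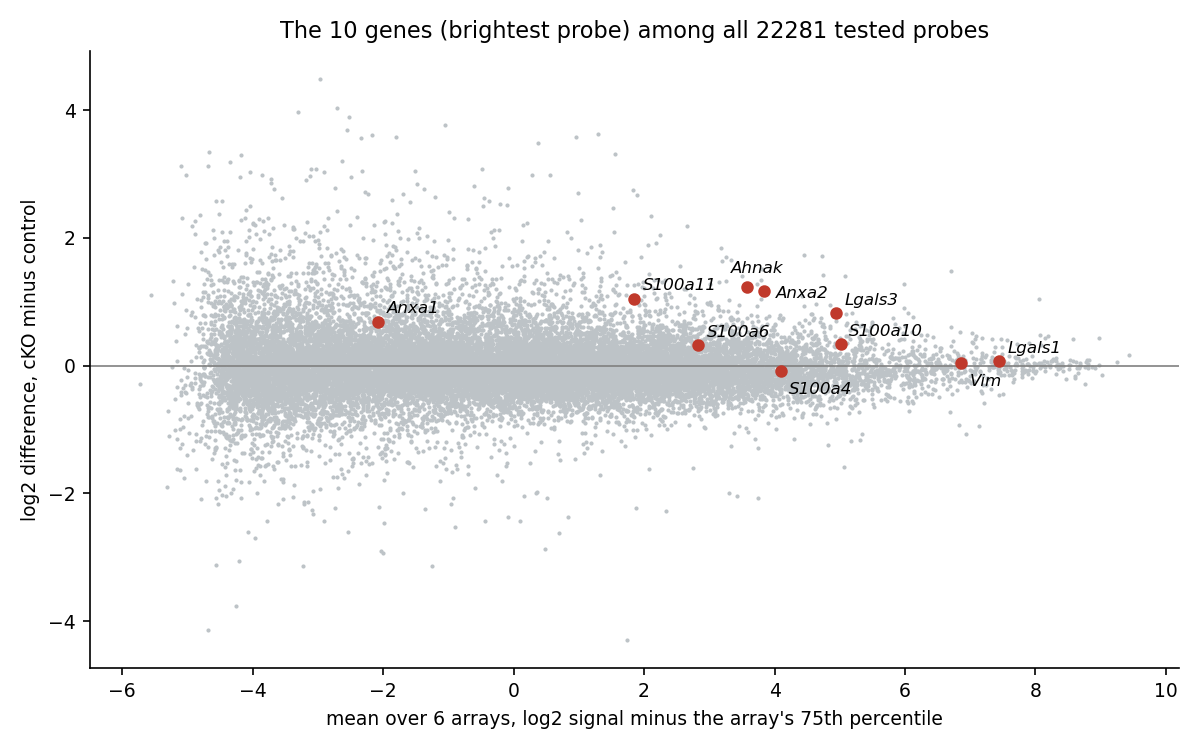
Log2 difference, cKO minus control (y axis), against the mean level over 6 arrays (x axis, log2 signal minus the 75th percentile) for all 22281 tested probes in grey, with the brightest probe of each of the 10 genes in red. Ahnak, Anxa2, S100a11 and Lgals3 lie in the upper part of the cloud at their level, and Vim, Lgals1 and S100a4 lie close to 0.

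Over the 6 arrays, the genes outside the list whose levels followed the brightest Ahnak probe most closely were Rcor2 (Pearson r = 0.999), Cryz (0.998), Cyp2s1 (0.998), Sccpdh (0.997) and Pck2 (0.996), out of 12547 genes compared. Their log2 differences were 2.12, 0.94, 2.47, 1.71 and 0.80. Among the listed genes the same correlation was 0.98 for S100a11, 0.95 for Anxa1, 0.94 for Anxa2, 0.81 for S100a10 and 0.77 for Lgals3, and 0.35 for Vim, 0.18 for Lgals1, 0.10 for S100a6 and -0.49 for S100a4. These values describe 6 arrays that fall into the groups compared, so that a difference between the groups alone gives a high correlation.

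Promoters are shown for the 3 listed genes with the largest log2 differences at their brightest probes, Ahnak, Anxa2 and S100a11. Each is the 250 bases before the RefSeq start (GRCm38.p6, plus strand). They lie at chr19:8989034-8989283, chr9:69453433-69453682 and chr3:93520246-93520495. Capitals mark GGGCGG, the GC box, on either strand in Ahnak, and TGANTCA, the AP-1 site, in Anxa2 and S100a11. The GGGCGG matches in Anxa2 and S100a11 are left in lower case.
Ahnak promoter: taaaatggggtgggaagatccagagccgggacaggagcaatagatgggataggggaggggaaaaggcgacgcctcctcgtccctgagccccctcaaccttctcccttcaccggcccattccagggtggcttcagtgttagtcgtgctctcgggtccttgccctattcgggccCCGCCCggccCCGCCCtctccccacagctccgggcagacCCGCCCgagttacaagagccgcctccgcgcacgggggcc
Anxa2 promoter: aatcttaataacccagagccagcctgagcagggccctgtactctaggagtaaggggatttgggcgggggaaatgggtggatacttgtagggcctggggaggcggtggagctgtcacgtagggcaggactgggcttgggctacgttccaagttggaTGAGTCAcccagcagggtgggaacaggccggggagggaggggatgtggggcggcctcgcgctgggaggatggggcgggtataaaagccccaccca
S100a11 promoter: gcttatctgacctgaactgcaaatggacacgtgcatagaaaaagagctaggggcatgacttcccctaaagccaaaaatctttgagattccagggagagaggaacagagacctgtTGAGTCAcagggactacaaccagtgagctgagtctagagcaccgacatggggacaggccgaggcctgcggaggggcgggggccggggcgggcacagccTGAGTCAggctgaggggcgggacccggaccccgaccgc

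Promoters of 8 of the 10 genes were matched in the RefSeq table, and S100a10 and Lgals1 were not. TGANTCA was found 95 bases before the start of Anxa2 and 136 and 38 bases before that of S100a11, which makes 2 of 8 promoters, and in 6.75% of all 32851 promoters in the table. GGGCGG was found in 4 of the 8, those of Ahnak (3 matches), Anxa2 (3), S100a11 (3) and Lgals3 (1), and in 32.7% of all. TATAAA, the TATA box, was found in 4 of the 8 as well, 32 bases before the start of Vim and of Anxa1, 31 before that of S100a4 and 17 before that of Anxa2, and in 12.4% of all. Both strands were searched. CAGACA, a SMAD element, was found in Lgals3 and in 17.1% of all, and TGTGGT, a RUNX element, in S100a6 and in 4614 of the 32851 promoters. GTCTAGAC and the forkhead element GTAAACA were in none of the 8, and in 0.167% and 3.17% of all. A match describes letters in a window and is not evidence of binding.

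Related genes outside the list gave a mixed picture. Of 10 other annexins on the array, 9 were tested, and 2, Anxa4 and Anxa7, were higher with an unadjusted p under 0.05, against 0 lower. The median log2 difference of the 9 was 0.41. Anxa5, the phosphatidylserine-binding annexin and the brightest of them on its probe, had levels of 4.31, 4.73 and 4.16 in cKO and 4.05, 3.86 and 4.09 in control, without overlap (log2 difference 0.40 ± 0.17, adjusted p = 0.23 by limma). Anxa4 had a log2 difference of 0.76 ± 0.21 (adjusted p = 0.15 by limma) and 0.80 ± 0.16 at its other tested probe. Anxa6 had 0.28 ± 0.17 (adjusted p = 0.35 by limma) and 0.47 ± 0.14 at its other probe. Anxa9 had the highest value of the list, 1.10 ± 0.50, and Anxa3 the lowest, -0.12 ± 0.31, and neither had an unadjusted p under 0.05. Anxa7, named after its values were seen, had a log2 difference of 0.80 ± 0.19 at its brightest probe (adjusted p = 0.12) and of 0.48 and 0.41 at its others.

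Of 11 other S100 genes on the array, 3 were tested, and 8 were not above background on enough arrays. Among the 8 were S100a8 and S100a9, the S100 genes of neutrophils and monocytes. S100a13, which takes part in the release of proteins that lack a signal peptide, was at 4.26, 4.23 and 4.19 in cKO and 4.23, 4.24 and 4.29 in control, a log2 difference of -0.03 ± 0.09. S100a1 was higher without overlap, at -0.09, 0.23 and 0.48 against -0.61, -0.53 and -0.49 (log2 difference 0.75 ± 0.16, adjusted p = 0.11 by limma). S100a3 was near background, with a log2 difference of -0.86 ± 0.48. The median of these 3 genes was -0.03.

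Of 9 other galectin genes on the array, 7 were tested, 2 of them (Lgals4 and Lgals7) were higher with an unadjusted p under 0.05 and 0 lower, and the median log2 difference was -0.20. Lgals9, the galectin that binds TIM-3, was at 2.67, 2.94 and 2.71 in cKO and 2.97, 3.01 and 2.94 in control. Before rounding every cKO array was below every control array (log2 difference -0.20 ± 0.11, adjusted p = 0.31 by limma). Cytoplasmic Lgalsl had a log2 difference of -0.24 ± 0.14. Lgals4 had the highest value of the list, 1.19 ± 0.41 (adjusted p = 0.18), and cKO 3 was far above the other cKO arrays, at 1.94 against 0.27 and 0.77. Lgals4 and Lgals6 are very similar in sequence, and whether each probe reads only the gene it is named for was not tested. Lgals8 had the lowest value, -0.64 ± 0.47, from cKO 2 alone at -0.24, where all other arrays were at 1.19 or above.

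Ahnak2 has no probe by that name. Of the other genes listed as AHNAK partners, 3 were tested and 0 had an unadjusted p under 0.05. Cacnb3, a calcium channel β subunit of T cells, had a log2 difference of 0.47 ± 0.21, Plcg1, a phospholipase activated by the antigen receptor, 0.28 ± 0.19, and Cacnb1 -0.06 ± 0.17. The median was 0.28.

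Among the other intermediate filament genes, 4 of 8 were tested, 2 were lower with an unadjusted p under 0.05 and 0 higher, and the median was -0.53. The lamin Lmnb1, which lines the nuclear envelope and is known to be higher in dividing cells, was at 3.12, 2.78 and 2.36 in cKO and 3.37, 3.32 and 3.43 in control, without overlap (log2 difference -0.62 ± 0.20, adjusted p = 0.17 by limma). Lmnb2 had a log2 difference of -0.75 ± 0.22 at its brighter probe (adjusted p = 0.16) and -0.09 ± 0.17 at the other. Lmna, an A-type lamin, had the highest value, 0.51 ± 0.33, and Nes, or nestin, was near background at -0.44 ± 0.27.

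**Figure D5:**
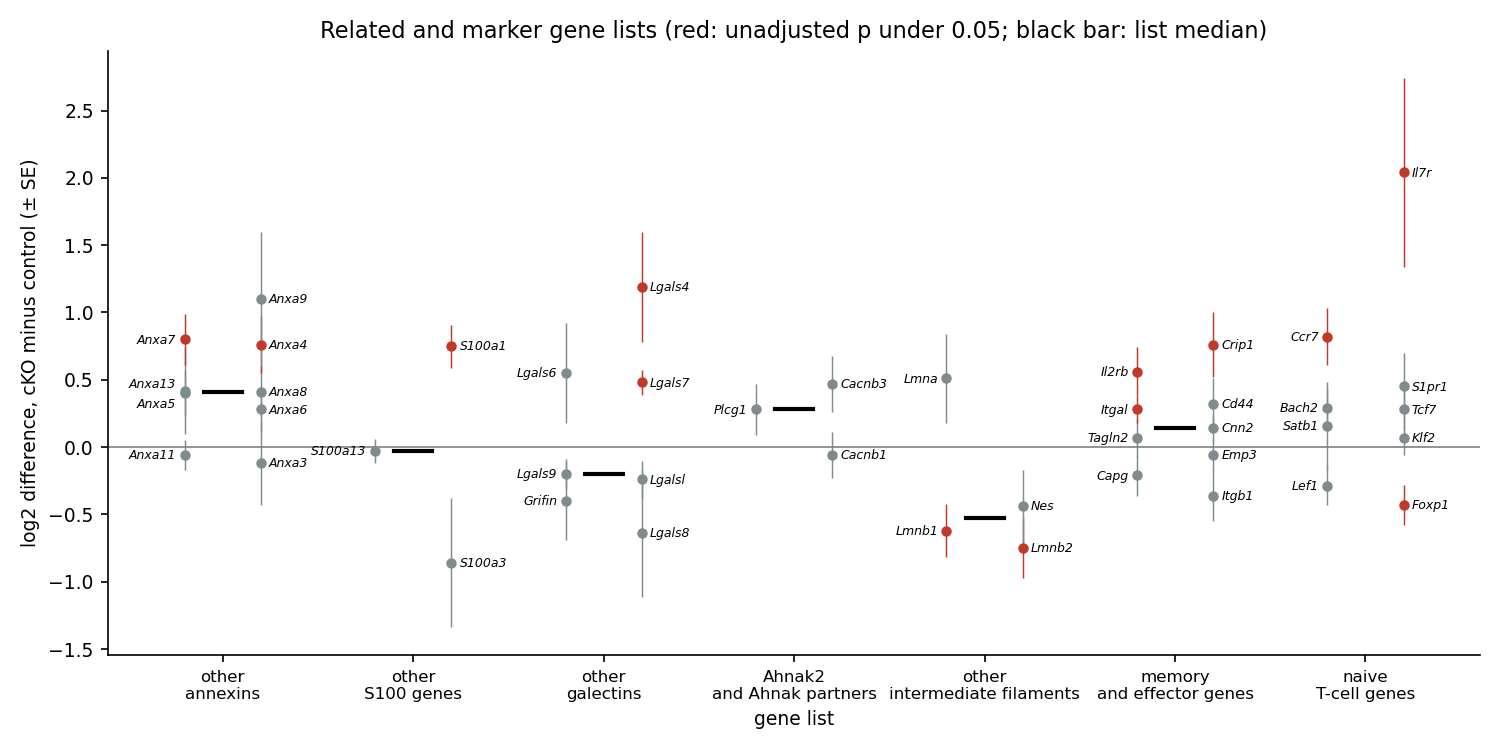
Log2 difference, cKO minus control, ± SE (y axis) for the tested genes of 7 lists (x axis), each by its brightest probe. Red points have an unadjusted p under 0.05, none has an adjusted p under 0.05, and black bars are the medians of the lists other than naive T-cell genes, from -0.53 for other intermediate filaments to 0.41 for other annexins.

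Genes that are often seen with the listed genes in effector and memory T cells were all tested, 9 of 9, and 3 were higher with an unadjusted p under 0.05 (Crip1, Il2rb and Itgal), 0 lower. Their median log2 difference was 0.14. Crip1, a LIM-domain protein, was at 6.20, 6.63 and 6.67 in cKO and 5.75, 6.12 and 5.33 in control, without overlap (log2 difference 0.76 ± 0.24, adjusted p = 0.17 by limma). Il2rb, the β chain of the IL-2 receptor, had a log2 difference of 0.56 ± 0.18 (adjusted p = 0.17). Capg and Tagln2, which encode actin-binding proteins, had log2 differences of -0.21 ± 0.15 and 0.07 ± 0.14. Itgb1 had the lowest value of the list, -0.36 ± 0.19, with every cKO array below every control array at its brightest probe. Itgal, named after its values were seen, had 0.28 ± 0.10.

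Genes of naive T cells differed in both directions. Il7r, the IL-7 receptor, had a log2 difference of 2.04 ± 0.70 (adjusted p = 0.18 by limma), with 2.67, 2.95 and 4.19 in cKO and 2.17, 1.71 and -0.19 in control. Ccr7, which guides cells to lymph nodes, had a log2 difference of 0.82 ± 0.21 (adjusted p = 0.14 by limma). Foxp1, a forkhead factor that maintains quiescence, had -0.43 ± 0.15 (adjusted p = 0.18). Klf2, Bach2 and Lef1, transcription factors of resting T cells, had 0.07 ± 0.13, 0.29 ± 0.14 and -0.29 ± 0.14.

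The labelled cell type was checked on marker lists. All 7 CD4 T cell markers and all 6 Treg markers were tested, with Foxp3 well above background on all 6 arrays. Foxp3 was at 3.23, 3.19 and 2.53 in cKO and 3.48, 3.48 and 3.81 in control, without overlap. Its log2 difference was -0.61 ± 0.22 (adjusted p = 0.19 by limma). The lowest and highest arrays for Foxp3, cKO 3 and control 3, were the highest and lowest for Ahnak. By flow cytometry the study reports more iTreg cells from cKO naive T cells. That is a share of cells, unlike the RNA of a whole culture read here, and the contrast was not tested. Of the 6 Treg markers by their brightest probes, Ctla4 was higher (0.94 ± 0.24) and Foxp3 lower with an unadjusted p under 0.05, and 4 were not under it. From the brightest probe down, those of Ikzf2 gave 0.51, 1.00, 0.65, 1.23 and 0.93, and those of Ikzf4 0.07, 0.03 and 0.31. The brightest, Tnfrsf18 and Il2ra, which encode the receptors GITR and CD25, had log2 differences of 0.41 ± 0.22 and -0.55 ± 0.33, and the other Il2ra probes gave -0.22, -0.65 and -0.02. Of the T cell markers, Cd3d, Cd3g, Cd4 and Cd28 were higher and Cd3e lower at that threshold, with log2 differences of 0.39, 0.74, 0.67, 0.43 and -0.27, while Cd5 and Lck had 0.12 ± 0.12 and -0.08 ± 0.10. The medians of the Treg and T cell lists were 0.24 and 0.39. The part of these shifts in the values of Ahnak and its companions was not tested.

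Markers of myeloid, B and stromal cells were mostly near background, while Cd8a, Cd8b1, Cdh1 and Epcam were well above it on all 6 arrays. Of 12 myeloid markers on the array, 3 were tested (Csf1r, Cd68 and Fcgr3), and Lyz1, Lyz2, Cd14, Itgam and Emr1 were not above background on enough arrays. The summed signal of the 12, in units of the array's 75th percentile, was 0.348 to 1.54 in cKO and 0.512 to 0.564 in control. Cd68 was higher in cKO, with a log2 difference of 0.64 ± 0.23 (adjusted p = 0.19 by limma), Csf1r had 0.15 ± 0.25, and Fcgr3 varied among arrays from -5.97 to 0.15, with a log2 difference of 1.70 ± 1.84. For 6 B cell markers, of which only Cd79b was tested, the sums were 0.581 to 1.34 in cKO and 0.406 to 0.662 in control, and Cd79b had a log2 difference of 0.61 ± 0.36. For 7 stromal markers, of which only Col1a2 was tested, they were 0.446 to 0.740 and 0.307 to 1.84, with the highest value on control 3, and Col1a2 had 0.35 ± 0.94. Epithelial markers, 3 of 5 tested, summed to 1.37 to 2.06 in cKO and 0.850 to 0.945 in control, with Cdh1 (1.02 ± 0.27) and Epcam (0.62 ± 0.18) higher at an unadjusted p under 0.05 and Krt18 at 0.45 ± 0.26. Both CD8 T cell markers were tested, Cd8a at -0.86 ± 0.41 and Cd8b1 at -0.17 ± 0.18, with a median of -0.51 and sums of 4.06 to 4.57 in cKO and 4.62 to 5.82 in control. The other Cd8a probes gave -0.93 ± 0.32 and -0.91 ± 0.37, each with an unadjusted p under 0.05 (adjusted p = 0.18 and 0.22 by limma). The part of these markers in the results was not tested.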

How the data were processed

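Transcripts were read on 6 Agilent arrays in 1 colour, each of 45018 spots, 43379 of them not controls, for 41174 probes. The authors labelled 0.5 μg of RNA per culture with Cy3 and extracted the scans with Agilent Feature Extraction, as version 10.7.3.1 per the file headers and as 9.1 in the submitters' processing notes. The deposited spot intensities are linear and background-subtracted within the array, with flags for spots well above background. The log2 values of a deposited summary table have a median of 6.15 in each column and follow the log2 intensities with a Pearson correlation of at least 0.998, with their normalization not given in the sources used here. All columns were assigned to a sample, leaving 0. Probe names, symbols and mm9 positions are the array's own.

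Values are log2 processed intensities, with spots marked as outliers (123 to 140 per array) left out and spots of a probe averaged, minus the array's 75th percentile, a signal of 939 to 1095. The 22281 probes flagged well above background on 3 or more of 6 arrays were tested with limma 3.58.1 (lmFit, eBayes) in R 4.3.3, Benjamini-Hochberg adjustment over all of them and a threshold of 0.05. Tables and plots used Python 3.11.15, pandas 2.3.3, numpy 2.4.6, scipy 1.17.1 and matplotlib 3.10.9. The fit was tested on simulated data with no slide effect and with shifts larger than any difference of the listed genes. That check does not cover differences of their size or the effect of the slide. The number of arrays limits the precision.

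The genes and lists were chosen with earlier results of these data known. Genes with more than 1 probe are represented by the brightest over 6 arrays. All probes of the 10 genes are given. From each other list, the text names the 4 brightest tested genes and those with the highest and lowest difference. The lists are other annexins, S100 genes, galectins and intermediate filaments, AHNAK partners, memory, naive and Treg genes, and markers of CD4 T, CD8 T, myeloid, B, stromal and epithelial cells. A gene of the naive list is not reported here, so no count or median is given for that list. Likeness to Ahnak is Pearson's r over 6 arrays among genes above background on all. Replicate numbers name different animals, and deviations of same-numbered arrays from their group means correlated at -0.14, 0.01 and -0.19, so they were not treated as pairs. The labels and the study's methods name different RNA kits and IL-2 doses. Labels say that the 3 animals of a group are individuals.

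Alternatives were quantile normalization alone, normexp background correction (offset 50) followed by either scaling, scaling to the median, the authors' log2 table, no filter or all 6 arrays above background, eBayes with trend and robust fitting (statmod 1.5.0), the methods' 2-sided test on log2 values, a replicate block, the slide as a term, array weights, each array left out, and the mean over a gene's probes. The 75th percentile over spots was added after seeing the data.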

Additional observations from a re-analysis of the deposited data

How the results depend on the processing

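Under the 19 alternatives fitted over probes, each Ahnak probe kept its direction, with log2 differences of 0.74 to 2.49. Since Ahnak was selected for its rise on these same arrays, this is a description and not a test of that rise. Of the 9 other genes, the 5 that were higher with an unadjusted p under 0.05 became 2 with normexp background correction and 75th-percentile scaling and 1 with the slide as a term, and were 4 to 5 with an array left out. The 6 probes that were higher became 2 and 1 in the same settings and 5 to 6 with an array left out, and the 1 that was lower became 0 in both and 0 to 1. Over all tested probes, 5118 had an unadjusted p under 0.05 in either direction. These became 1654 with normexp and the 75th percentile and 1639 with the slide as a term, so the counts fell over the whole array as well. With an array left out they were 2863 (without control 3) to 6469 (without cKO 1). Among the 9 genes, the number with an adjusted p under 0.05 stayed 0 except with array weights, where S100a10 and S100a11 passed, 2 of 9. In that setting 1824 probes passed over the whole array. The weights ran from 0.17 for cKO 3 to 4.79 for control 2, so that fit leaned on control 2 and gave little weight to cKO 3. The 5 related annexins, S100 genes and galectins that were higher became 2 with the slide as a term, and were 4 to 7 with an array left out. With an array left out, 5 to 6 of the 9 genes had groups that did not overlap. Fewer arrays separate more easily, and the share over all tested genes was not computed for those settings. The share given for 6 arrays does not apply to them.

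The 29 probes with an adjusted p under 0.05 became 112 with normexp and quantile normalization, 0 with normexp and the 75th percentile, 79 with the median, 54 with the 75th percentile over spots (chosen after seeing the data), 0 without a filter, 175 with all 6 arrays above background, 98 with trend and robust fitting, 0 with the methods' test, 0 with the slide as a term, 1824 with array weights and 0 to 1 with an array left out. With the replicate block they were 0, and the member counts did not change. At an unadjusted p under 0.05 the settings had at least 1639 probes each.

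Some values changed sign. Lgals1 changed to -0.19 (normexp, 75th percentile) and, with an array left out, to between -0.01 and 0.17. Vim changed to -0.21 (normexp, 75th percentile), -0.04 (slide) and -0.05 to 0.09 with an array left out. The dim Vim probe, at -0.52, changed to 0.20 (normexp, 75th percentile). S100a4 changed to 0.24 (array weights) and -0.32 to 0.19 with an array left out, where it turned without cKO 3 and without control 3. With normexp and the 75th percentile the median of all probes was 0.10 rather than -0.04. The causes were not tested.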

Other observations

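Some genes of the related lists were read differently by their probes. Lmnb2 had a log2 difference of -0.75 at 1 probe and -0.09 at the other, both designed on NM_010722. Lgals8 had -0.64 and 0.03, both on NM_018886, and Cd3e had -0.27 on NM_007648 and 0.78 on BC028636. By contrast, the 3 tested Anxa7 probes gave 0.80, 0.48 and 0.41, and the 3 tested Foxp1 probes gave -0.43, -0.42 and -0.38.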
